A study of Mus musculus with 10 samples.

Results

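The genes described here are 49 regulators of chromatin and DNA methylation, compared between mature CD8 single-positive (CD8SP) and mature CD4 single-positive (CD4SP) thymocytes of C57BL/6 mice. They were taken from a list of symbols in 8 families and cover enzymes that write and erase DNA methylation, Polycomb subunits, HP1 readers, subunits of the BAF and NuRD remodelling complexes, deacetylases with their corepressor, histone methylases and demethylases, and acetyltransferases with bromodomain and architectural proteins. All 49 were found among the 23265 genes that the short-read files name. In the long-read tables, isoforms assigned to these genes numbered 95 of 9476 in CD8SP and 78 of 8289 in CD4SP cells.

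The study asked how far the cytotoxic and helper lineages differ in messenger RNA splicing. CD8SP cells were TCRβ-positive, CD24-negative cells with CD8 and no CD4, sorted after beads had taken out cells with CD4, and CD4SP cells were TCRβ-positive, CD24-negative cells with CD4 and no CD8, sorted after removal of cells with CD8. Each sample pooled 2 to 3 thymi of mice aged 6 to 8 weeks, and the labels name no genetic change or drug in either group. Each lineage had 1 long-read library and 4 short-read samples whose labels differ by lane, and the deposited short-read file of a lineage pools these lanes. Every level below is therefore 1 value per lineage with no replicate, and differences between mice were not measured.

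Cells keep a committed fate partly through chromatin. DNA methyltransferases add methyl groups to cytosine and TET enzymes oxidise them, Polycomb complexes modify histones at silent genes, HP1 proteins bind methylated histone H3, and BAF and NuRD use ATP to move nucleosomes. In thymocytes, BAF and the NuRD ATPase Chd4 are known to act at the Cd4 locus, whose silencing in CD8 cells is kept up by DNA methylation.

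Of the 49 genes, 4 passed the rule for a difference: Men1 was higher in CD8SP cells, Bmi1 was lower in CD8SP cells, and Brd2 and Cbx3 were called higher in CD8SP cells against a CD4SP value of exactly 0, which can be a failed estimate. A gene passed when its higher FPKM (fragments scaled to transcript length and to the mapped fragments of the file) was at least 1, the ratio was at least 2-fold after adding 0.1 FPKM to both values, and the summed deposited intervals did not overlap. The 4 make up 8.16% of the 49, beside 14.7% of the 9687 genes tested, and the share called higher in CD8SP cells was 9.98% over all genes and higher in CD4SP cells 4.75%. Among the genes that reached 1 FPKM in each lineage the median log2 ratio, CD8SP over CD4SP, was 0.21, so a gene that keeps its place among the others lies at 0.21 and not at 0. The 47 members above 0 in both files had a median log2 ratio of -0.12, which is -0.33 relative to that shift, and 13 of them lay above the shift and 34 below it. The median size of the log2 ratio was 0.30 for the members and 0.40 for all genes, but 0.43 for the members and 0.37 for all genes after scaling by the shift, so which of the sets differed more depends on the scaling. In sorted bulk cells a lower share of cells with a transcript and less of it per cell cannot be told apart.

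**Figure D1:**
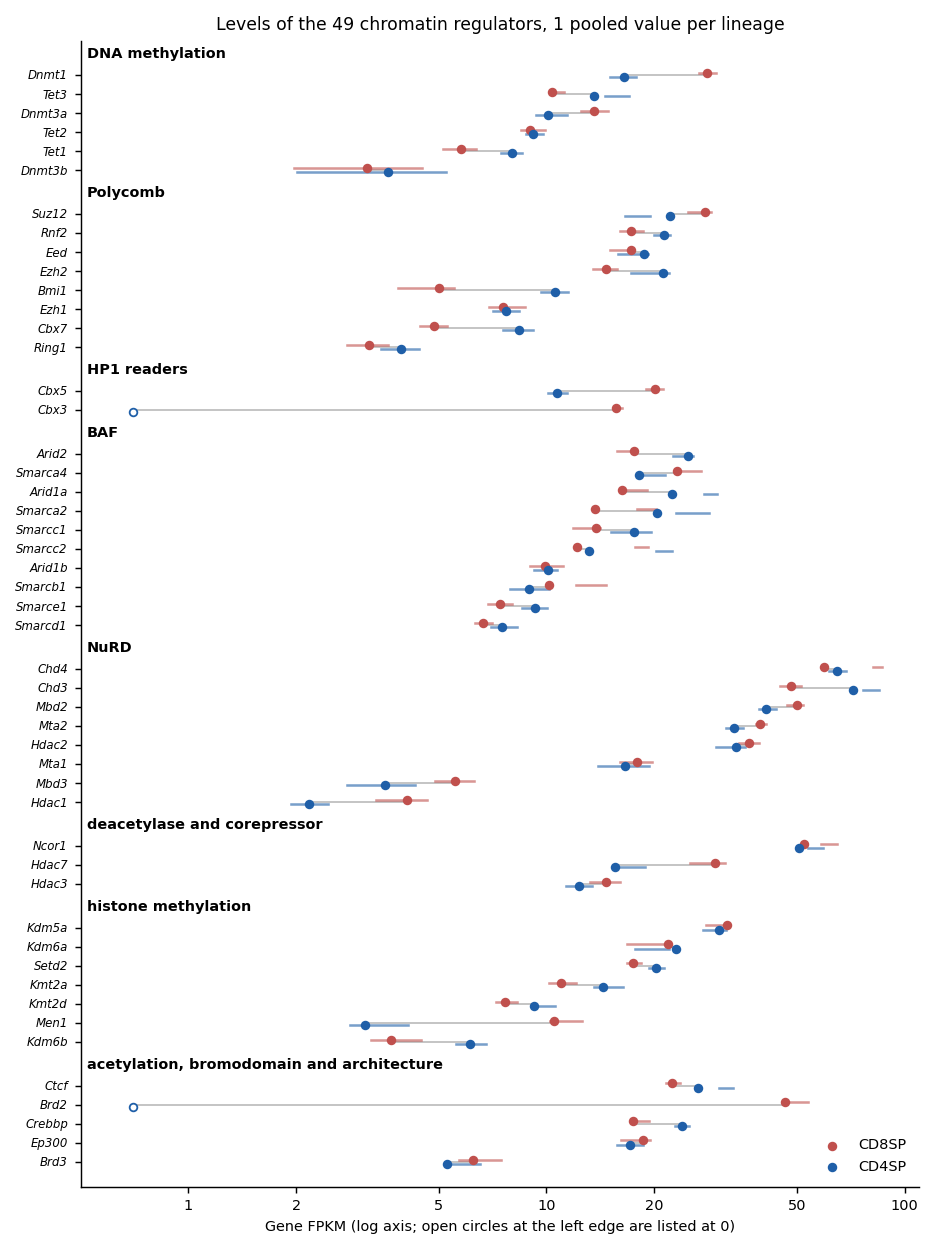
Gene FPKM (log axis) of the 49 regulators by family in CD8SP and CD4SP cells, 1 pooled value per lineage, with horizontal bars for the summed deposited intervals. Brd2 and Cbx3 are listed at 0 in CD4SP cells (open circles) and Men1 and Bmi1 are apart by over 2-fold.

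The identity genes went with the labels, with Cd8a at 241 FPKM in CD8SP and 10.9 FPKM in CD4SP cells and Cd4 at 1.69 FPKM in CD8SP and 107 FPKM in CD4SP cells. Of 14 proliferation genes 12 were called higher in CD8SP cells and none in CD4SP cells, with a summed level of 303 FPKM in CD8SP and 118 FPKM in CD4SP cells. Of 6 immature thymocyte genes 2 (Rag1 and Arpp21) were called higher in CD4SP cells, and the list summed to 28.04 FPKM in CD8SP and 44.8 FPKM in CD4SP cells. The 6 B cell genes summed to 5.52 FPKM in CD8SP and 0.708 FPKM in CD4SP cells, nearly all of it Cd79b, with Cd79a and Pax5 listed at 0 in both by gene FPKM. The exon-based value, a sum that weights each transcript by how much of the RefSeq exon sequence it spans, was 0.248 in CD8SP and 7.05 in CD4SP cells for Cd79a, against 5.12 in CD8SP and 0.583 in CD4SP cells for Cd79b, so the direction of the B cell list depends on the measure. The 7 myeloid and dendritic genes summed to 0.784 FPKM in CD8SP and 2.67 FPKM in CD4SP cells. The 4 erythroid genes summed to 3.91 FPKM in CD8SP and 6.14 FPKM in CD4SP cells. The 4 stromal genes summed to 15.9 FPKM in CD8SP and 23.6 FPKM in CD4SP cells, with Pdgfra listed at 0 in both. Nearly all of the stromal sum was Pecam1, at 14.8 FPKM in CD8SP and 22.4 FPKM in CD4SP cells. The part of these marker genes in the results below was not tested.

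None of the 6 genes of DNA methylation was called. Dnmt1, the maintenance methyltransferase (chromosome 9, 20907206 to 20959888), had 28.05 FPKM in CD8SP cells (interval 26.7 to 29.7) and 16.4 FPKM in CD4SP cells (interval 15.1 to 17.8). This was 1.71-fold higher and the intervals did not overlap, which is short of the 2-fold limit, and the exon-based value was 22.8 in CD8SP and 11.6 in CD4SP cells. Dnmt3a, a methyltransferase of unmethylated sites, had 13.6 FPKM in CD8SP and 10.1 FPKM in CD4SP cells. Dnmt3b, the other enzyme of this kind (chromosome 2, 153649449 to 153687730), was the lowest of the family. It had 3.16 FPKM in CD8SP cells (interval 1.97 to 4.48) and 3.599 FPKM in CD4SP cells (interval 2.01 to 5.23). These intervals overlap. Assembled transcripts held 98.8% of its FPKM in CD8SP and 89.0% in CD4SP cells. Its exon-based values were 1.04 in CD8SP and 1.17 in CD4SP cells. Tet1, which oxidises methylcytosine (chromosome 10, 62804570 to 62880014), had 5.79 FPKM in CD8SP cells (interval 5.14 to 6.34) and 8.03 FPKM in CD4SP cells (interval 7.48 to 8.57), all of it carried by assembled transcripts, since both RefSeq isoforms are listed at 0 in both files. Tet2, of the same enzyme family, had 9.02 FPKM in CD8SP and 9.16 FPKM in CD4SP cells, and the 2 values differ by less than their intervals. Tet3 (chromosome 6, 83362374 to 83441678) had 10.4 FPKM in CD8SP cells (interval 10.2 to 11.2) and 13.6 FPKM in CD4SP cells (interval 14.6 to 16.99), and the CD4SP value lies below its own interval, so that interval is no guide to its error. Dnmt1 thus had the highest level of the family in both lineages.

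Among 12 tested of 13 further genes of DNA methylation fixed as a list, 1 was called higher in CD8SP and 2 in CD4SP cells. Uhrf1, which brings Dnmt1 to hemimethylated DNA, had 14.6 FPKM in CD8SP and 4.48 FPKM in CD4SP cells, a log2 ratio of 1.68. The proliferation genes moved the same way, with 12 of 14 called and log2 ratios from 0.59 to 1.76, and their part in the Uhrf1 and Dnmt1 values was not tested. Zbtb33, a reader of methylated DNA, had 1.38 FPKM in CD8SP and 4.02 FPKM in CD4SP cells, and Gadd45a, a stress-induced gene linked to demethylation, had 1.70 FPKM in CD8SP and 4.75 FPKM in CD4SP cells. The Zbtb33 values both lie outside their summed intervals, and its exon-based values were 3.22 in CD8SP and 5.82 in CD4SP cells. Those of Gadd45a were 2.62 in CD8SP and 4.75 in CD4SP cells. Both genes were thus less than 2-fold apart by the exon-based value.

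None of the annotated splice events of this family was called. A splice event was measured by its percent spliced in (PSI), the share of the summed FPKM of both forms that belongs to transcripts with the longer or upstream form, and was called at a difference of 20 points or more. Tet1 has a coding exon of 96 bases (chr10:62818939-62819034, GRCm38, minus strand) whose PSI was 88.5% in CD8SP and 97.04% in CD4SP cells. Dnmt1 has a pair of acceptor sites 3 bases apart (chr9:20940552-20940554, minus strand), and the form with 3 more bases had a PSI of 50.7% in CD8SP and 54.1% in CD4SP cells. The segments are shown in capitals between 12 exonic bases on each side, since they set which residues the enzymes carry:
Tet1 exon of 96 bases: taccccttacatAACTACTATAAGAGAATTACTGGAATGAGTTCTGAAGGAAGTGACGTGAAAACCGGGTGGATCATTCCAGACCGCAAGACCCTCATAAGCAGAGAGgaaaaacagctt
Dnmt1 acceptor segment of 3 bases: gtgacaccctttCAGttgaaacttcac
Both keep the reading frame, as 96 bases are 32 codons and 3 bases are 1 codon, and the Dnmt1 segment ends in AG, the letters that close an intron in the form without it. The most upstream first exon of Dnmt1, of 156 bases, had a PSI of 1.27% in CD8SP and 0% in CD4SP cells against the first exon of 272 bases, and of 15.9% in CD8SP and 0% in CD4SP cells against a rarely used first exon. The annotated first exon of Dnmt3a of 141 bases had a PSI of 79.3% in CD8SP and 91.1% in CD4SP cells against that of 95 bases. With assembled forms included, the 95-base first exon had a PSI of 75.3% in CD8SP and 24.1% in CD4SP cells against another first exon and was called.

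In the long reads Dnmt1 had 1 isoform in each library. The CD8SP isoform has 30 exons over 4412 bases with a splice site outside the annotation and a predicted frame of 1034 residues. It is a predicted target of nonsense-mediated decay, and the CD4SP isoform is not. The CD4SP isoform has 33 exons over 4560 bases, every junction of which is in Dnmt1-203, and a predicted frame of 1235 residues. Dnmt3a had 2 isoforms in CD8SP, both of a single exon, and 6 in CD4SP cells, where it was among the genes with the most isoforms and 3 had more than 1 exon. Tet2 had 3 isoforms in CD8SP and 5 in CD4SP cells, and of these only 1 CD4SP isoform was spliced. Tet3 had 4 isoforms in each library, all of a single exon, and its levels thus have no spliced long read beside them.

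Of the 8 Polycomb genes 1 was called, Bmi1, and 7 of the 8 lay below the shift of all genes. Bmi1, a RING finger subunit of the complex that ubiquitinates histones (chromosome 2, 18677018 to 18686629), had 5.01 FPKM in CD8SP cells (interval 3.84 to 5.53) and 10.5 FPKM in CD4SP cells (interval 9.63 to 11.5). That is 2.104-fold higher in CD4SP cells, a log2 ratio of -1.06, and the intervals are apart. The call was lost with the exon-based value, which was 8.01 in CD8SP and 9.59 in CD4SP cells, and with a pseudocount of 1, where the log2 ratio was -0.94. Rnf2, the main E3 ligase of that complex (chromosome 1, 151469406 to 151500823), had 17.3 FPKM in CD8SP cells (interval 16.04 to 18.6) and 21.3 FPKM in CD4SP cells (interval 20.02 to 22.1). Ring1, its close relative (chromosome 17, 34020792 to 34024680), was the lowest of the family with 3.1997 FPKM in CD8SP cells (interval 2.78 to 3.62) and 3.92 FPKM in CD4SP cells (interval 3.45 to 4.41). Cbx7, which binds methylated histone H3 and brings the complex to it (chromosome 15, 79915807 to 79932646), had 4.85 FPKM in CD8SP cells (interval 4.42 to 5.28) and 8.37 FPKM in CD4SP cells (interval 7.58 to 9.17), a log2 ratio of -0.78 that misses the 2-fold limit with intervals that do not overlap. The 4 subunits of this complex among the members thus all had lower values in CD8SP cells, and Bmi1 alone passed the rule. Further Polycomb genes did not share this direction. Of 24 tested, 15 had a higher value in CD8SP cells and 9 a lower one, and 14 lay above the shift and 10 below it.

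The other Polycomb complex methylates histone H3. Suz12, its scaffold (chromosome 11, 79993106 to 80034123), had 27.6 FPKM in CD8SP cells (interval 24.9 to 28.9) and 22.2 FPKM in CD4SP cells (interval 16.5 to 19.4), the highest level of the family in CD8SP cells. Its CD4SP value lies above its own interval. Eed, which binds the methyl mark already laid, had 17.2 FPKM in CD8SP and 18.7 FPKM in CD4SP cells. Ezh1, an alternative catalytic subunit, had 7.57 FPKM in CD8SP and 7.71 FPKM in CD4SP cells. Ezh2, the main catalytic subunit, had 14.6 FPKM in CD8SP and 21.2 FPKM in CD4SP cells, with a log2 ratio of -0.53 that became 0.03 by the exon-based value. RefSeq isoform NM_007971 held 70.4% of Ezh2 FPKM in CD8SP and 33.7% in CD4SP cells, and assembled transcripts carried most of the remainder. Over all genes with several RefSeq isoforms, 15.1% of 5832 isoforms differed by 20 points or more, and among the members 4 of 53 did, or 7.55%. Of 24 further Polycomb genes tested, 1 was called: Phf19, a reader of methylated histone H3 that binds this complex, with 1.35 FPKM in CD8SP and 0.410 FPKM in CD4SP cells.

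The coding segments that differ between Ezh2 and Suz12 isoforms are all whole codons. They are shown because the deposited levels and long reads bear on which protein form is made:
Ezh2 donor segment of 27 bases: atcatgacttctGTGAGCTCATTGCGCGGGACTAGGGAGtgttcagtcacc
Ezh2 donor segment of 15 bases: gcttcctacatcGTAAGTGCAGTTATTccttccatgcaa
Suz12 exon of 69 bases: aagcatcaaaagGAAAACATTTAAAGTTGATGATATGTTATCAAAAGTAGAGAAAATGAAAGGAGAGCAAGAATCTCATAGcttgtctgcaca
The Ezh2 segment of 27 bases (chr6:47576536-47576562, minus strand) adds 9 codons and had a PSI of 95.7% in CD8SP and 91.2% in CD4SP cells. The Ezh2 segment of 15 bases (chr6:47551717-47551731, minus strand) adds 5 codons and had a PSI of 23.5% in CD8SP and 8.78% in CD4SP cells, a difference of 14.7 points that misses the limit. Both segments open with GT, the letters with which the intron of the shorter form begins. The Suz12 exon (chr11:79999057-79999125, plus strand) adds 23 codons and had a PSI of 75.8% in CD8SP and 80.04% in CD4SP cells. These 3 choices stood on the same side in both lineages, with the 27-base segment and the Suz12 exon mostly included and the 15-base segment mostly left out.

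Long reads held both Ezh2 forms in each lineage. The isoform with a predicted frame of 706 residues has 19 exons over 2430 bases and follows Ezh2-201, which carries the 27-base segment. A second isoform of 19 exons over 2403 bases has a predicted frame of 697 residues with the same start and end. The pair differs by 27 bases and 9 residues in both libraries. CD8SP cells had 4 Ezh2 isoforms, including a full splice match to Ezh2-202 (every junction of that 18-exon transcript, 2305 bases, 664 residues), and CD4SP cells had 2. Rnf2 had a full splice match in CD8SP cells, to the 2-exon transcript Rnf2-206 that GENCODE classes as a retained intron. Bmi1, Eed, Ezh1 and Ring1 had no isoform in either library.

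The HP1 readers Cbx3 and Cbx5 bind methylated histone H3 in condensed chromatin. Cbx5 (chromosome 15, 103191546 to 103239816) had 20.1 FPKM in CD8SP cells (interval 19.02 to 21.1) and 10.7 FPKM in CD4SP cells (interval 10.1 to 11.4), a 1.87-fold difference with intervals apart that misses the 2-fold limit, and exon-based values of 19.8 in CD8SP and 10.9 in CD4SP cells gave nearly the same ratio. Cbx3 (chromosome 6, 51470616 to 51483704) had 15.6 FPKM in CD8SP cells (interval 15.3 to 16.2) and 0 FPKM in CD4SP cells (interval 0 to 0.0268). It was called higher in CD8SP cells, but the zero can be a failed estimate. RefSeq transcript NM_007624 is listed at 0 in both files, the whole CD8SP level belongs to 1 assembled transcript, and in CD4SP cells 3.98 FPKM stands on an assembled transcript that shares introns with both Cbx3 and its neighbour Nfe2l3 and is left out of the sum. With such shared transcripts added the log2 ratio was 1.95, and by the exon-based value (14.5 in CD8SP and 2.49 in CD4SP cells) it was 2.50. The long reads held 1 Cbx3 isoform in each library, of 3 exons in CD8SP and of a single exon in CD4SP cells. None of 7 further genes of this family was called.

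None of the 10 BAF genes was called, and 9 of the 10 lay below the shift of all genes. Smarca4, an ATPase of the complex (chromosome 9, 21616169 to 21704230), had 23.2 FPKM in CD8SP cells (interval 22.8 to 26.9) and 18.1 FPKM in CD4SP cells (interval 18.3 to 21.5), and the CD4SP value lies below its interval. Smarca2, the alternative ATPase, had 13.6 FPKM in CD8SP and 20.4 FPKM in CD4SP cells, with a log2 ratio of -0.57 that became 0.18 by the exon-based value. Its RefSeq isoform NM_011416 held 63.6% of gene FPKM in CD8SP and 24.6% in CD4SP cells, where 15 assembled transcripts took the rest, against 4 in CD8SP cells. Both Smarca2 gene values lie below their intervals.

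The other BAF subunits ranged from 6.67 to 24.8 FPKM. Smarcb1, a core subunit, had 10.1 FPKM in CD8SP and 8.93 FPKM in CD4SP cells, the CD8SP value below its interval. Smarcc1, a scaffold subunit, had 13.7 FPKM in CD8SP and 17.6 FPKM in CD4SP cells. Its partner Smarcc2 had 12.1 FPKM in CD8SP and 13.2 FPKM in CD4SP cells, both values below their intervals. Smarcd1, a core subunit (chromosome 15, 99702287 to 99713995), was the lowest of the family with 6.67 FPKM in CD8SP cells (interval 6.31 to 7.04) and 7.53 FPKM in CD4SP cells (interval 7.01 to 8.27). Smarce1, which carries an HMG domain (chromosome 11, 99209048 to 99231017), had 7.42 FPKM in CD8SP cells (interval 6.85 to 8.01) and 9.27 FPKM in CD4SP cells (interval 8.52 to 10.05). Arid1a and Arid1b are alternative DNA-binding subunits of the canonical complex. Arid1a had 16.2 FPKM in CD8SP and 22.5 FPKM in CD4SP cells, both values below their intervals. Arid1b had 9.897 FPKM in CD8SP and 10.1 FPKM in CD4SP cells. By the exon-based value Arid1b was the lowest of the family, with 5.62 in CD8SP and 5.91 in CD4SP cells. That of Smarcd1 was 6.87 in CD8SP and 7.32 in CD4SP cells. Arid2, which marks the PBAF variant (chromosome 15, 96287522 to 96405463), had 17.6 FPKM in CD8SP cells (interval 15.8 to 17.6) and 24.8 FPKM in CD4SP cells (interval 22.6 to 25.7), with intervals apart and a log2 ratio of -0.49, though the CD8SP value lies above its interval. Of 13 further BAF genes tested 1 was called: Phf10, a PBAF subunit, with 15.1 FPKM in CD8SP and 6.32 FPKM in CD4SP cells, though its exon-based values were 9.04 in CD8SP and 7.41 in CD4SP cells.

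Smarca4 held the 1 coding event among annotated forms that was called with both forms above 0 in both files. It has acceptor sites 3 bases apart (chr9:21699800-21699802, plus strand), and the form with the extra codon had a PSI of 43.2% in CD8SP and 69.7% in CD4SP cells, a difference of -26.4 points. In CD8SP cells the form with the codon had 5.22 FPKM and the form without it 6.85 FPKM, and in CD4SP cells they had 7.09 FPKM and 3.09 FPKM. PSI ranges from the deposited bounds were 40.1% to 46.1% in CD8SP and 66.8% to 71.9% in CD4SP cells and did not overlap. Most of this FPKM sits on assembled transcripts, which held 83.3% of Smarca4 FPKM in each lineage. The Smarcb1 segment of 27 bases (chr10:75916773-75916799, minus strand) had a PSI of 30.6% in CD8SP and 34.95% in CD4SP cells. Both segments are shown because they decide single residues or short stretches of core BAF proteins:
Smarca4 acceptor segment of 3 bases: gtacaaagacagCAGcagtggacgtca
Smarcb1 donor segment of 27 bases: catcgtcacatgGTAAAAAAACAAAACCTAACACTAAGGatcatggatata
The Smarca4 segment CAG is followed by the same letters cag in the exon, so the acceptor lies in a repeat of this triplet. Smarca4 long reads followed the form with the codon, which Smarca4-202 and Smarca4-201 both carry. The 28-exon isoforms follow Smarca4-202, with 4132 bases in CD8SP and 4131 bases in CD4SP cells and a predicted frame of 1194 residues in both. A 19-exon CD8SP isoform follows Smarca4-201. Smarca4-202 also carries a coding acceptor segment of 9 bases (chr9:21686013-21686021, plus strand) whose short-read PSI was 0% in both lineages. The form without that segment had 12.1 FPKM in CD8SP and 8.004 FPKM in CD4SP cells. At that site the 28-exon isoforms and the short-read levels thus differ.

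Smarca4 was among the genes with the most long-read isoforms in CD8SP cells, with 6 against 2 in CD4SP cells. Smarcb1 had 2 isoforms in CD8SP and 6 in CD4SP cells, all of more than 1 exon. A frame of 230 residues was predicted in both libraries. Smarcd1 had 4 isoforms in CD8SP and 5 in CD4SP cells, and frames of 229 and 123 residues were predicted in both. The isoforms with the frame of 123 residues are predicted targets of nonsense-mediated decay in both libraries. Smarcc1 had 1 isoform in CD8SP and 3 in CD4SP cells, all of a single exon, and 1 of the CD4SP isoforms was a full match to a single-exon transcript. Smarcb1 and Smarcd1 thus had spliced isoforms in each lineage, while Arid1b, Arid2 and Smarca2 had single-exon isoforms only.

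NuRD joins a remodelling ATPase to histone deacetylases, and Chd4 had the highest level of the list in CD8SP cells and Chd3 in CD4SP cells. By the exon-based value Chd4 was the highest in both lineages, with 43.9 in CD4SP cells against 38.3 for Chd3. None of the 8 NuRD genes was called. Chd4, the main ATPase (chromosome 6, 125096163 to 125130501), had 59.4 FPKM in CD8SP cells (interval 81.9 to 86.4) and 64.7 FPKM in CD4SP cells (interval 61.7 to 68.6), and the CD8SP value lies well below its own interval. Chd3, the alternative ATPase (chromosome 11, 69343273 to 69369426), had 48.2 FPKM in CD8SP cells (interval 44.95 to 51.5) and 71.97 FPKM in CD4SP cells (interval 76.7 to 84.8), and here the CD4SP value lies below its interval. Mta1, a scaffold subunit, had 17.9 FPKM in CD8SP and 16.6 FPKM in CD4SP cells. Mta2, its relative, had 39.5 FPKM in CD8SP and 33.3 FPKM in CD4SP cells, with intervals apart at a log2 ratio of 0.24, which is near the shift of all genes. Mbd2, which binds methylated DNA, had 50.1 FPKM in CD8SP and 41.1 FPKM in CD4SP cells. Mbd3, a relative that binds it poorly (chromosome 10, 80392541 to 80399479), had 5.57 FPKM in CD8SP cells (interval 4.87 to 6.28) and 3.53 FPKM in CD4SP cells (interval 2.77 to 4.303), a log2 ratio of 0.64. Hdac1, a catalytic deacetylase (chromosome 4, 129516104 to 129542646), was the lowest of the family with 4.08 FPKM in CD8SP cells (interval 3.34 to 4.63) and 2.17 FPKM in CD4SP cells (interval 1.93 to 2.45), and its RefSeq isoform is listed at 0 in CD4SP cells. Hdac2, the other deacetylase of the complex, had 36.8 FPKM in CD8SP and 33.9 FPKM in CD4SP cells, so that Hdac2 stood far above Hdac1 in both lineages. None of the 4 further NuRD genes tested was called.

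Mta2 had the most long-read isoforms of any member in CD8SP cells, 7 against 1 in CD4SP cells, all of more than 1 exon. The CD8SP set includes a full splice match to Mta2-201, with 18 exons, 2869 bases and a predicted frame of 664 residues, and 4 isoforms with a retained intron. A frame of 495 residues was predicted in both libraries. Hdac2 had a full splice match to Hdac2-203, a 3-exon transcript classed as a retained intron, in both libraries, of 2701 bases in CD8SP and 2703 bases in CD4SP cells. Chd3 shared a frame of 295 residues and Mbd3 a frame of 261 residues between the libraries. Mta1 had no isoform in either library.

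Deacetylases outside NuRD and their corepressor were not called. Hdac3, the catalytic subunit of the corepressor complex, had 14.6 FPKM in CD8SP cells (interval 13.2 to 16.1) and 12.3 FPKM in CD4SP cells (interval 11.3 to 13.4). Ncor1, the corepressor that holds it (chromosome 11, 62316426 to 62457332), had 52.5 FPKM in CD8SP cells (interval 58.5 to 64.9) and 50.6 FPKM in CD4SP cells (interval 53.6 to 59.3), and both values lie below their intervals. Hdac7, a class IIa deacetylase that thymocytes express and export from the nucleus on antigen receptor signalling (chromosome 15, 97792664 to 97844502), had 29.6 FPKM in CD8SP cells (interval 25.2 to 31.4) and 15.5 FPKM in CD4SP cells (interval 15.5 to 18.8), a 1.91-fold difference in which the CD4SP value lies below its interval. Its log2 ratio of 0.93 became 0.61 by the exon-based value. Of 18 further genes of this family tested, 1 was called in each direction: Sirt3, a mitochondrial deacylase, had 1.71 FPKM in CD8SP and 0.475 FPKM in CD4SP cells, and Sirt2, a tubulin and histone deacetylase, had 1.504 FPKM in CD8SP and 7.58 FPKM in CD4SP cells. The exon-based values of Sirt2 were 6.15 in CD8SP and 5.71 in CD4SP cells, so its difference was absent from that value.

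Hdac7 and Ncor1 have the most annotated splice choices of the list. In Hdac7 a coding exon of 111 bases (chr15:97808660-97808770, minus strand) had a PSI of 42.004% in CD8SP and 28.9% in CD4SP cells, short of the limit. A coding exon of 174 bases (chr15:97807594-97807767, minus strand) was called with a PSI of 100% in CD8SP and 72.2% in CD4SP cells, but the form without it has 0 FPKM in CD8SP and 0.481 FPKM in CD4SP cells, and the form with it 1.94 FPKM and 1.25 FPKM. In the Ncor1 donor choice of 42 bases (chr11:62349353-62349394, minus strand) the PSI was 68.6% in CD8SP and 59.8% in CD4SP cells. Of the segments with intermediate use in both lineages, 2 are shown:
Hdac7 exon of 111 bases: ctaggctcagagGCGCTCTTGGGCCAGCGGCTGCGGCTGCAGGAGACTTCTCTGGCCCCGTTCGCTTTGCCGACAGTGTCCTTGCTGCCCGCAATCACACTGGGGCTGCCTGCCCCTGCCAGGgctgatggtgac
Ncor1 donor segment of 42 bases: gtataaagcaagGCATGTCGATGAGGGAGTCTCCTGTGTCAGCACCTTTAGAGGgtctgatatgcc
They add 37 and 14 codons. Of the 5 annotated donor and acceptor choices of Ncor1, none differed by more than 8.78 points. In Hdac7 the upstream first exon of 397 bases had a PSI of 40.7% in CD8SP and 27.4% in CD4SP cells against the first exon of 409 bases, a difference of 13.3 points. Hdac7 had 1 long-read isoform, in CD8SP cells, with 15 exons over 2537 bases. Hdac3 had none in either library.

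Of the 7 genes that methylate or demethylate histones 1 was called. Men1 encodes menin, a subunit of the Kmt2a methyltransferase complex (chromosome 19, 6334979 to 6340894), and had 10.5 FPKM in CD8SP cells (interval 10.3 to 12.6) and 3.11 FPKM in CD4SP cells (interval 2.82 to 4.095). It was 3.36-fold higher in CD8SP cells, a log2 ratio of 1.72. Part of this rests on a transcript that is left out of the sum: in CD4SP cells an assembled transcript of 39 exons that joins Men1 to its neighbour Map4k2 holds 2.07 FPKM. With it added the log2 ratio was 1.002, and the exon-based value (12.3 in CD8SP and 5.92 in CD4SP cells) gave 1.04, close to the 2-fold limit in both cases and beside a median of 0.21 over all genes. In CD8SP cells NM_008583 has an FPKM outside its own interval. Without such transcripts the log2 ratio was 0.68 and the call was lost.

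Men1 also differed in which 5′ leader its transcripts carried. NM_001168488 had 2.68 FPKM in CD8SP cells and is listed at 0 in CD4SP cells. NM_001168489 had 2.36 FPKM in CD8SP and 1.85 FPKM in CD4SP cells. NM_008583, which keeps the leader intron, had 5.43 FPKM in CD8SP and 1.26 FPKM in CD4SP cells. NM_001168490 is listed at 0 in both. As shares of gene FPKM, NM_001168488 held 25.6% in CD8SP and 0% in CD4SP cells and NM_001168489 held 22.5% in CD8SP and 59.4% in CD4SP cells. These isoforms differ by 12 bases at a donor in the untranslated leader (chr19:6335071-6335082, plus strand), shown with 9 exonic bases on each side:
Men1 donor segment of 12 bases: gtgtgggatGTAAGCGCGGAGgccaccgcc
The segment opens with GT, as the donors of Ezh2 do, and lies outside the reading frame. Its PSI was 46.8% in CD8SP and 100% in CD4SP cells, and the leader intron of 362 bases was retained in 69.7% in CD8SP and 24.4% in CD4SP cells. These values count the transcript joined to Map4k2 as spliced. The other leader intron, of 374 bases, had a PSI of 66.9% in CD8SP and 100% in CD4SP cells, with its spliced form at 0 FPKM in CD4SP cells. All 3 called Men1 events thus describe the same leader and rest on the same few transcripts. Men1 had no long-read isoform.

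Its partner Kmt2a, which methylates histone H3 at active promoters, had 10.97 FPKM in CD8SP and 14.3 FPKM in CD4SP cells, and all of the CD4SP level sits on assembled transcripts. Kmt2d, which acts at enhancers, had 7.64 FPKM in CD8SP and 9.23 FPKM in CD4SP cells. Kdm5a, a demethylase of the same lysine (chromosome 6, 120364099 to 120444574), was the highest of the family with 31.9 FPKM in CD8SP cells (interval 27.9 to 32.2) and 30.3 FPKM in CD4SP cells (interval 27.4 to 31.6). Kdm6a, which removes the Polycomb methyl mark (chromosome X, 18162667 to 18279358), had 21.9 FPKM in CD8SP cells (interval 16.8 to 21.5) and 22.97 FPKM in CD4SP cells (interval 17.7 to 22.1), both values above their intervals. Kdm6b, its inducible relative (chromosome 11, 69398518 to 69413675), had 3.69 FPKM in CD8SP cells (interval 3.24 to 4.47) and 6.11 FPKM in CD4SP cells (interval 5.57 to 6.79), a log2 ratio of -0.71 with intervals apart. Setd2, which methylates histone H3 over transcribed genes, had 17.4 FPKM in CD8SP and 20.2 FPKM in CD4SP cells. Its exon-based value was the highest of the family, at 17.1 in CD8SP and 18.6 in CD4SP cells. That of Kdm5a was 15.2 in CD8SP and 15.8 in CD4SP cells. None of 25 further genes of this family was called. Kdm6b had 3 long-read isoforms in CD4SP cells, the most exons being 13, and none in CD8SP cells.

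Among acetyltransferases, bromodomain readers and architectural proteins 1 of 5 was called. Brd2, a BET protein that binds acetylated histones (chromosome 17, 34112019 to 34122607), had 46.4 FPKM in CD8SP cells (interval 46.96 to 53.8) and 0 FPKM in CD4SP cells (interval 0 to 0), and the CD8SP value lies below its interval. No fold is given against the zero, which can be a failed estimate. In the CD4SP file all 3 RefSeq and 5 assembled transcripts of Brd2 are listed at 0 with bounds of 0, while the CD4SP long-read library holds 4 spliced Brd2 isoforms. The one with the longest predicted frame has 10 exons over 2644 bases, follows Brd2-202 and codes for 677 residues in that prediction. CD8SP cells held 6 Brd2 isoforms, up to 11 exons and 752 residues, and a frame of 300 residues was predicted in both. The CD4SP isoform with that frame is a predicted target of nonsense-mediated decay, and the CD8SP isoform is not. The long reads thus list spliced Brd2 transcripts in both lineages, and the size of any difference between them was not measured. Spliced assembled transcripts at 0 numbered 4352 of 49191 in CD8SP and 4039 of 52657 in CD4SP cells, and 65 genes in CD8SP and 47 in CD4SP cells are listed at 0 although transcripts were assembled for them.

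In CD8SP cells 14.02 FPKM of Brd2 carried an exon of 92 bases (chr17:34116598-34116689, minus strand) and 16.7 FPKM lacked it, a PSI of 45.6% that has no CD4SP value beside it. The exon is no multiple of 3, and RefSeq gives the transcript that holds it, NR_037970, as non-coding. Brd3, another BET protein (chromosome 2, 27445581 to 27475673), had 6.22 FPKM in CD8SP cells (interval 5.705 to 7.49) and 5.29 FPKM in CD4SP cells (interval 5.17 to 6.54). It has a coding exon of 51 bases (chr2:27453400-27453450, minus strand) that most transcripts skipped in both lineages, at a PSI of 3.47% in CD8SP and 16.7% in CD4SP cells:
Brd3 exon of 51 bases: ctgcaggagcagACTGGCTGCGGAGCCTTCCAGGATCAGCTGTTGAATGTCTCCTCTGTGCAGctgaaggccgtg
Ep300, an acetyltransferase and coactivator (chromosome 15, 81586214 to 81652077), had 18.6 FPKM in CD8SP cells (interval 16.2 to 19.4) and 17.1 FPKM in CD4SP cells (interval 15.7 to 18.6). Crebbp, its relative, had 17.4 FPKM in CD8SP and 23.9 FPKM in CD4SP cells. Ctcf, the zinc finger protein that bounds chromatin loops (chromosome 8, 105636538 to 105682922), had 22.4 FPKM in CD8SP cells (interval 21.5 to 23.7) and 26.4 FPKM in CD4SP cells (interval 30.4 to 33.1), and the CD4SP value lies below its interval. None of the 19 further genes of this family was called.

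**Figure D2:**
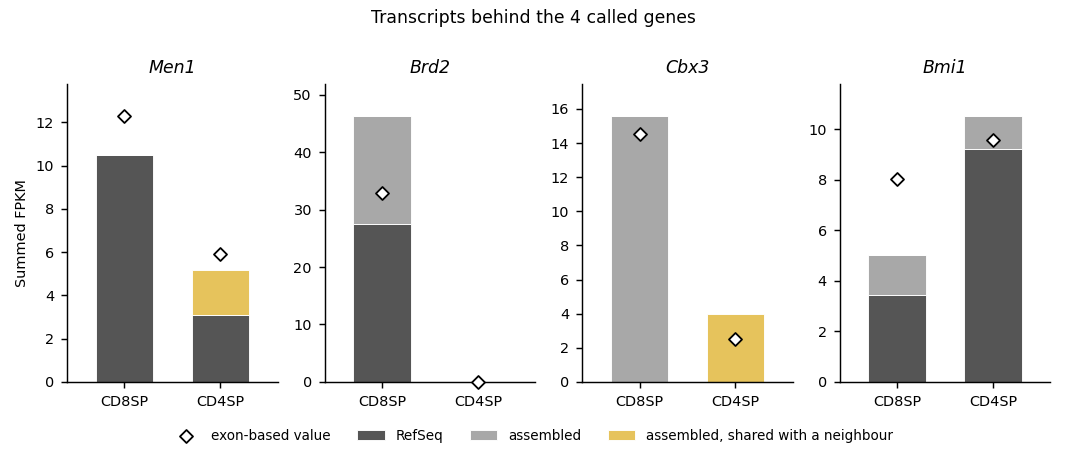
Summed FPKM of RefSeq transcripts, assembled transcripts and assembled transcripts that share introns with a neighbouring gene (the last not in the gene sum) in CD8SP (left) and CD4SP (right) cells, with the exon-based value as a diamond. Men1 and Cbx3 stand higher in CD8SP cells by both measures. Brd2 is at 0 in CD4SP cells by both, but both add up the same deposited transcript values. Its diamond is thus no separate check on that 0. The Bmi1 bars differ and the Bmi1 diamonds, 8.01 and 9.59, nearly meet.

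Set over all 49 genes, the exon-based value was at least 2-fold apart for 3 (Men1, Brd2 and Cbx3), or 6.12%, beside 11.1% of 9737 genes tested. It is summed from the same transcript FPKM, so for Brd2 it is no second check on the CD4SP value of 0. The median exon-based log2 ratio was -0.02 over the members and 0.21 over all genes, so the members lay below the other genes by both measures. The sign of the ratio differed between gene FPKM and exon-based value for 9 members, and scaling by the shift changed the sign for 6. Gene sums lay outside their own summed intervals for 15 members in at least 1 lineage. Assembled transcripts held more than 50% of gene FPKM for 15 members in CD8SP and 18 in CD4SP cells. For these counts and those of sign changes no share over all genes was computed. Of 89 member RefSeq transcripts, 9 in CD8SP and 13 in CD4SP cells lay outside their own interval. Among all RefSeq transcripts this held for 5.19% in CD8SP and 4.89% in CD4SP cells. The median share of gene FPKM on assembled transcripts was 33.7% in CD8SP and 40.4% in CD4SP cells for the members, beside 32.0% in CD8SP and 36.2% in CD4SP cells for all genes.

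**Figure D3:**
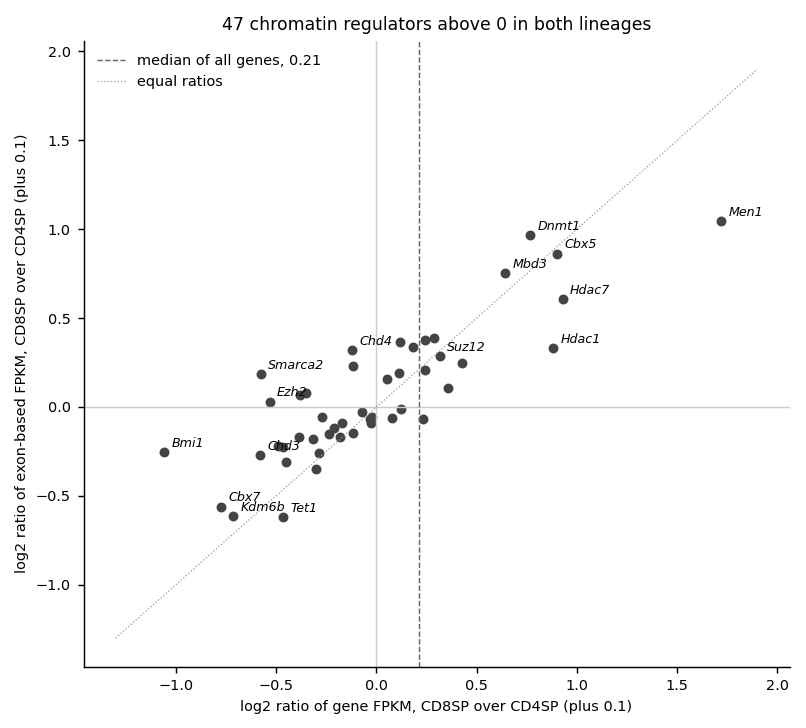
Log2 ratio, CD8SP over CD4SP, of exon-based FPKM (vertical) against that of gene FPKM (horizontal), with 0.1 added to each value, for the 47 members above 0 in both files. Dnmt1, Cbx5, Mbd3 and Men1 lie high on both axes and Cbx7, Kdm6b and Tet1 low on both, while Bmi1, Ezh2 and Smarca2 lie low on the horizontal axis and near 0 or above it on the vertical.

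Over annotated splice forms, 36 events in 14 members were tested and 5 in 3 members (Men1, Hdac7 and Smarca4) differed by 20 points or more, or 13.9%, beside 17.4% of 2881 events over all genes. Of the 5, 2 had a higher PSI in CD8SP and 3 in CD4SP cells, and 23 of the 36 differed by less than 10 points. The median difference in size was 4.87 points for the members and 6.78 points for all genes. With forms of assembled transcripts included and both forms above 0 in both files, 36 of 278 member events were called, or 12.9%, beside 12.8% of 23925 over all genes. With any form allowed the shares were 19.3% of 850 member events and 19.3% of 84220 events of all genes. Splice forms of chromatin regulators thus differed between the lineages about as often as those of other genes. Of 25 annotated exons and splice sites of members that lie in coding sequence, 24 are a multiple of 3 bases long, the exception being the Brd2 exon.

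**Figure D4:**
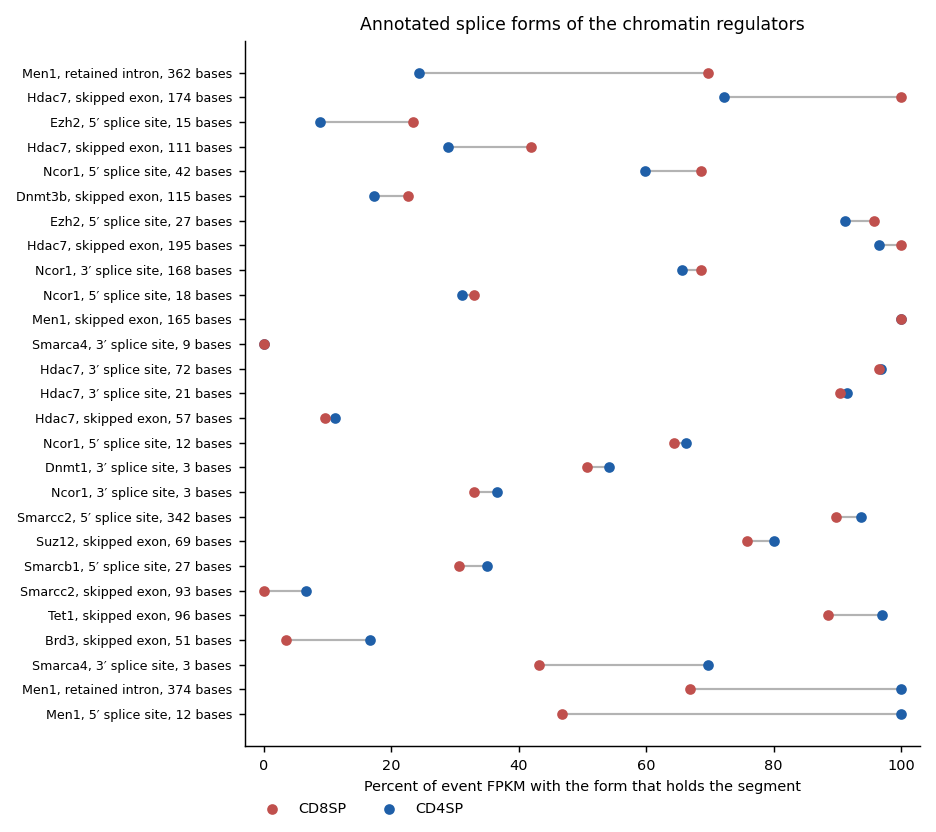
Percent of event FPKM that belongs to the form with the segment, in CD8SP and CD4SP cells, for the 27 tested events of annotated exons, splice sites and introns of the members, sorted by difference. Apart from the Men1 leader, the Hdac7 exon of 174 bases and the Smarca4 site of 3 bases, the points of a pair lie within 15 points of each other.

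Long reads listed at least 1 isoform of 40 members in CD8SP and 35 in CD4SP cells, 34 of them in both. Cbx7, Dnmt3b, Hdac7, Rnf2, Smarcc2 and Suz12 were listed in CD8SP cells alone and Kdm6b in CD4SP cells alone. The share of all genes listed in 1 library alone was not computed. The CD8SP library lists more isoforms in all, 9476 against 8289 in CD4SP cells. Bmi1, Eed, Ep300, Ezh1, Hdac3, Men1, Mta1 and Ring1 were in neither. Listed members had a median of 15.9 FPKM in CD8SP cells and those not listed 10.5 FPKM, and in CD4SP cells the medians were 16.4 and 12.8 FPKM. By the exon-based value the medians were 12.9 for listed and 10.06 for other members in CD8SP cells. In CD4SP cells they were 10.2 and 11.02, so the direction there depends on the measure. Full splice matches made up 4 of 95 member isoforms in CD8SP (4.21%, exact 95% interval 1.16% to 10.4%) and 2 of 78 in CD4SP cells (2.56%, 0.312% to 8.96%), beside 11.7% and 11.2% of all isoforms placed in genes. Isoforms of more than 1 exon were 54.7% in CD8SP (44.2% to 64.98%) and 43.6% in CD4SP cells (32.4% to 55.3%), beside 45.7% and 43.3% of all. These intervals cover counting error only.

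The remainder were single-exon isoforms, and 27 of 43 of these in CD8SP and 29 of 44 in CD4SP cells end where the genome continues with 60% or more A, beside 72.7% in CD8SP and 76.1% in CD4SP cells for all genes. Of the spliced member isoforms 10 of 52 in CD8SP and 7 of 34 in CD4SP cells do so. Such ends can come from priming inside a transcript, and how many did was not tested. Predicted reading frames of spliced member isoforms numbered 42 in CD8SP and 27 in CD4SP cells. Of these, 10 had the same start, end and length in both, among them the 2 of Ezh2 and the Smarca4 frame of 1194 residues. The share of frames found in both libraries was not computed over all genes. Member isoforms had a median length of 2675 bases in CD8SP and 2702 bases in CD4SP cells.

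**Figure D5:**
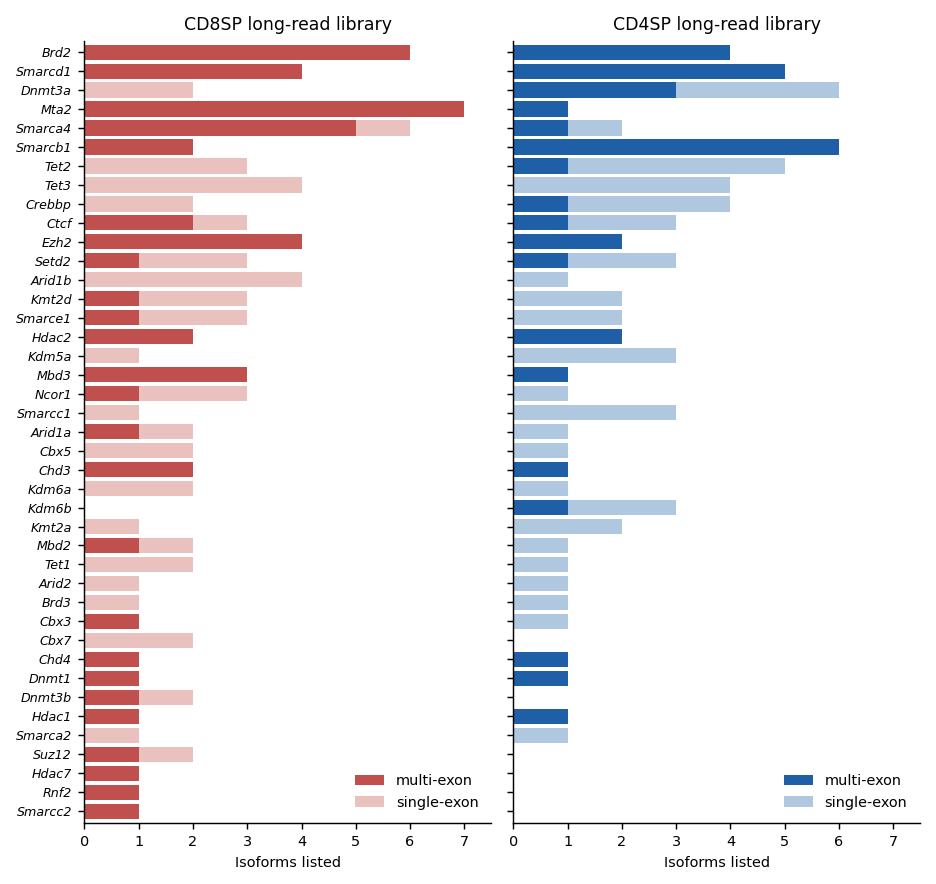
Isoforms listed per member in the CD8SP (left) and CD4SP (right) long-read libraries, split into multi-exon (dark) and single-exon (pale). Mta2 with 7 and Brd2 and Smarca4 with 6 lead in CD8SP cells, Dnmt3a and Smarcb1 with 6 in CD4SP cells, and most others have 1 to 3 in each.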

How the data were processed

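Short reads were rRNA-depleted total RNA and long reads were PCR-amplified full-length cDNA. The deposited transcript files hold FPKM with lower and upper bounds, 1 file per lineage in which the authors pooled the 4 lanes. The submitters' processing notes name TopHat2 2.0.14, Cufflinks 2.1.1, GSNAP, RSEM 1.3.1, Trimmomatic, FastQC and GRCm38. The deposited long-read tables also give, per the file headers, the percent of A in the genome after each isoform's end, and list isoforms with no read counts, so the depth of these tables, like that behind each FPKM, is unknown, and 1 deposited table of the whole series was not used.

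Gene FPKM was summed over RefSeq transcripts and assembled spliced transcripts that share an intron with that gene alone, with bounds summed likewise. Calls needed an FPKM of 1, a 2-fold ratio after adding 0.1 and intervals that do not overlap. Exon-based values used transcripts of 200 bases or more. Events and isoform shares needed 20 points at 1 FPKM in both lineages. Positions are GRCm38, 1-based, and printed sequences were read from the GENCODE M21 transcripts. With 1 value per lineage no p-value was computed. Scripts were tested on simulated data and ran in Python 3.11.15 with NumPy 2.4.6, SciPy 1.17.1 and Matplotlib 3.10.9. Every member's level is given, with intervals for members called, at 0, or among the 2 highest and 2 lowest of a family. Events and shares are named where called, and long reads for the 3 members with most isoforms or with a full match. Other events, isoforms and intervals were named after their values were seen, as were the printed sequences. The members and all lists were chosen with earlier results of these data known.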

Additional observations from a re-analysis of the deposited data

Results flagged for a closer look

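Long-read isoforms antisense to the members lie outside the measurements above and were present in both libraries. CD8SP cells had 27 of them, at 19 members, and CD4SP cells had 25, at 16 members. Those of more than 1 exon were 5 in CD8SP and 3 in CD4SP cells. The genome after their ends held a median of 90% A in each library, and its part in their presence was not tested.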

How the results depend on the processing

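The count of called members was 4 in the values reported and 3 or 4 under other pseudocounts, minima, scaling, no condition on intervals and the exon-based value. Over all genes the share called under these settings ran from 9.17% to 15.4%. With RefSeq transcripts only it was 8 (5 higher in CD8SP and 3 in CD4SP cells), beside 20.6% of all genes. Without transcripts whose FPKM lies outside its own interval it was 12 (8 higher in CD8SP and 4 in CD4SP cells), beside 26.3% of all genes. Adding transcripts shared with a neighbouring gene, chosen after seeing the data, left 4. Other genes of the families gave 7 calls of 122 tested, or 5.74%, beside 14.7% of all genes. They gave 3 by the exon-based value, beside 11.1% of all genes, and 10 after scaling, beside 13.6%. After scaling 4 were higher in CD8SP and 6 in CD4SP cells, against 4 and 3 before. Isoform shares gave 4 calls of 53, or 7.55%, beside 15.1% over all genes. They gave 11 at 10 points and 2 at a minimum of 5 FPKM. Annotated events gave 5 calls of 36, or 13.9%, beside 17.4% over all genes. With assembled forms there were 164 calls of 850, or 19.3%, beside 19.3% over all genes. Annotated events gave 13 calls at 10 points, 3 at 30 points, 2 at a minimum of 5 FPKM and 2 with both forms in both files. For the other limits on isoform shares and annotated events no share over all genes was computed. Member isoforms in the long reads fell to 58 in CD8SP and 42 in CD4SP cells without ends of 60% or more A, and to 52 in CD8SP and 34 in CD4SP cells with single-exon isoforms left out. The cause of these changes beyond fewer or more items entering was not tested. No paired analysis was possible because the lanes of a lineage are pooled in 1 file, and for the same reason no replicate could be left out. An FPKM of 0 in these files can be a failed estimate.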

Other observations

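Events that involve assembled transcripts, named here after their values were seen, included the following differences between lineages, each with both forms above 0 in both files. A coding exon of 102 bases in Chd3 had a PSI of 57.9% in CD8SP and 95.8% in CD4SP cells. In Kdm6a a coding exon of 99 bases had a PSI of 95.3% in CD8SP and 56.0% in CD4SP cells. A Mbd3 donor that adds 96 coding bases had a PSI of 86.4% in CD8SP and 49.8% in CD4SP cells. The Dnmt3a first exon of 95 bases had a PSI of 75.3% in CD8SP and 24.1% in CD4SP cells against another first exon. An Eed intron of 739 bases was retained in 28.5% in CD8SP and 76.8% in CD4SP cells. Such calls were as frequent among the members as among all genes, at 12.9% and 12.8% of events with both forms in both files.

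Each library also listed 2 single-exon isoforms named for both Kdm6b and its neighbour Tmem88, of 2838 and 2115 bases in CD8SP and 2841 and 2096 bases in CD4SP cells, which are not counted among the member isoforms.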
